A study of Mus musculus with 6 samples.

Results

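The p160 coactivators SRC-1, SRC-2 and SRC-3, encoded by Ncoa1, Ncoa2 and Ncoa3, and the proteins they work with were examined at the RNA level in liver without SRC-2. The genes listed were these 3 and 6 partners, Crebbp, Ep300, Carm1, Prmt1, Med1 and Ncor1. Every probe set annotated with exactly one of these symbols was taken and read on its own, which gave 23 of the 45101 probe sets on the array, for 8 of the 9 genes. No probe set was listed under Ncor1 in the annotation used here, so this corepressor was not analysed. RNA came from flash-frozen liver of female mice on a C57 background. All animals of both groups had been ovariectomized at the age of 6 weeks and were sampled after a further 2 weeks, under Avertin anaesthesia. The groups were SRC-2 null (SRC-2-/-, 3 arrays) and wild-type (3 arrays), and the labels do not say which part of Ncoa2 the null allele lacks or whether each array was a separate animal.

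Nuclear receptors switch genes on when a hormone, bile acid, lipid or other ligand changes their shape and a coactivator docks. The p160 proteins dock through short leucine-rich motifs and then bring in enzymes that modify histones. CBP and p300 (Crebbp, Ep300) add acetyl groups, CARM1 and PRMT1 methylate arginines, and MED1 links the receptor to the Mediator complex and so to RNA polymerase II. NCoR1 does the opposite on unliganded receptors, where it brings in a histone deacetylase. In liver these proteins serve receptors that control glucose, lipid, bile acid and drug metabolism.

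Of the 23 probe sets, 17 had a mean over the 6 arrays at or above 4.21 on the log2 scale, the median of all probe sets, and were tested. All 8 genes kept at least 1 tested probe set. In SRC-2 null liver 2 of the 17 were lower and 0 higher, and both were Ncoa2 probe sets. Across the whole array 473 of 19634 tested probe sets were called, which is 2.41%, with 1.79% lower and 0.616% higher in null liver. A call means a Benjamini-Hochberg adjusted p under 0.05 in limma, taken over all 19634. With the replicate number as a term in the model, 4.15% were called (2.77% lower), and the calls among the 17 were the same 2 Ncoa2 probe sets. Replicate 3 of both genotypes stood apart from replicates 1 and 2 over the whole array, and with replicates 1 and 2 alone the same 2 Ncoa2 probe sets and none of the other 15 were called. All values below are log2 RMA levels or differences between them, and levels of different probe sets are not on a common scale.

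**Figure D1:**
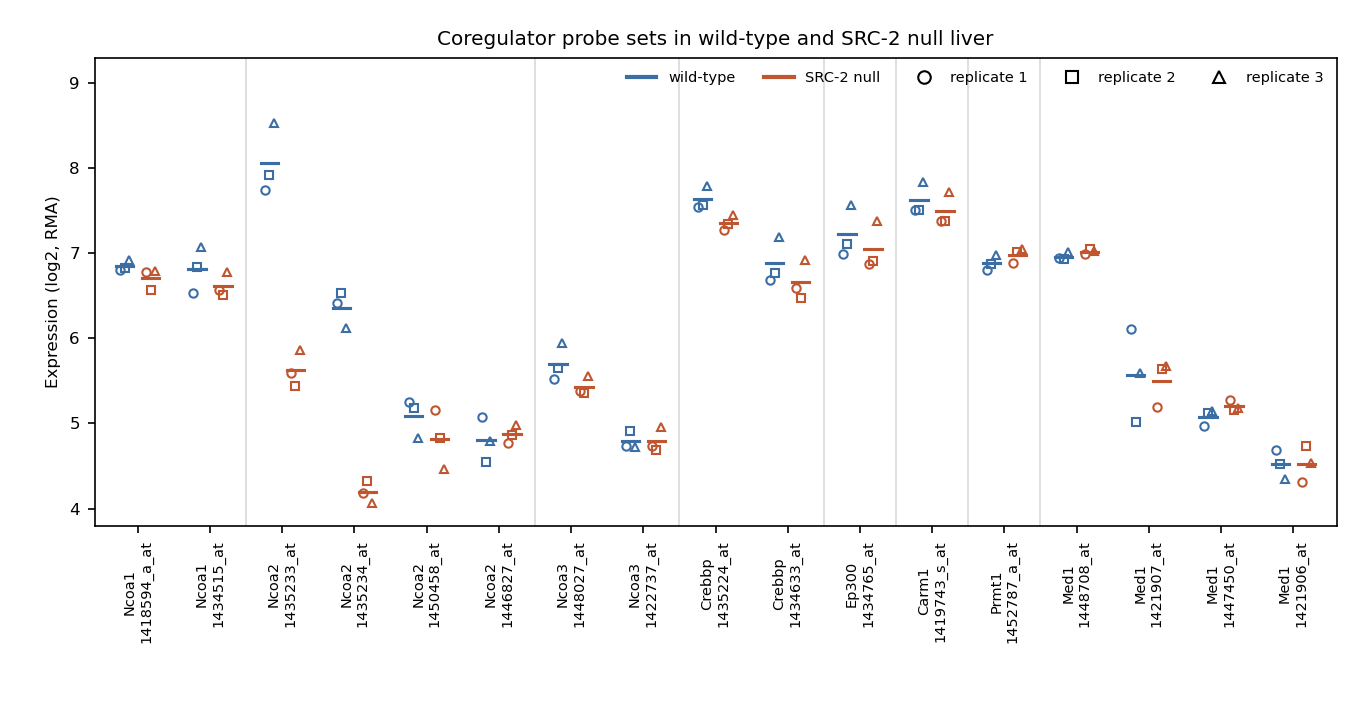
RMA expression (log2, vertical axis) of the 17 tested coregulator probe sets on each array, wild-type in blue and SRC-2 null in orange, with circles, squares and triangles for replicates 1, 2 and 3 and a bar at each group mean. Probe sets 1435233_at and 1435234_at of Ncoa2 show wide gaps between the genotypes, and the other 15 lie close together.

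Ncoa2 RNA fell in the SRC-2 null livers where it was measured by probe sets 1435233_at and 1435234_at. At 1435233_at the levels were 7.74, 7.92 and 8.53 in wild-type and 5.60, 5.44 and 5.86 in null liver. The lowest wild-type array lay well above the highest null array. The mean went from 8.07 ± 0.41 to 5.63 ± 0.21 (SD, n = 3 each), 5.41-fold lower (log2 fold change -2.44, SE 0.21, 95% interval -2.93 to -1.94, limma adjusted p = 0.0013). At 1435234_at wild-type levels were 6.41, 6.53 and 6.12, and null levels 4.19, 4.32 and 4.06. Here too the genotypes were far apart, and the null mean of 4.19 lay below the filter value of 4.21, so the fall may be understated. It was 4.48-fold (log2 fold change -2.16, SE 0.13, 95% interval -2.46 to -1.86, adjusted p = 0.000201). By size of fall these probe sets ranked 16 and 20 among the 19634.

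The annotation pairs these 2 probe sets with the same source sequence, so they are not independent readings of the gene. They also differed in how the replicates lay. At 1435233_at replicate 3 was the highest array in both genotypes, and at 1435234_at it was the lowest in both. The fall was nevertheless seen within each replicate number at both probe sets, and its size differed most between them in replicate 3. It was -2.15, -2.48 and -2.67 at 1435233_at and -2.23, -2.21 and -2.06 at 1435234_at, for null minus wild-type in replicates 1, 2 and 3. With replicates 1 and 2 alone the log2 fold changes were -2.32 (limma adjusted p = 0.00173) and -2.22 (adjusted p = 0.0015). Leaving out any array kept both calls, with adjusted p up to 0.0136 for 1435233_at and up to 0.00362 for 1435234_at.

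The other 2 Ncoa2 probe sets did not pass the test. At 1450458_at the 3 wild-type arrays gave 5.26, 5.18 and 4.83, against 5.15, 4.83 and 4.47 in the null. The groups overlapped, and in both of them replicate 3 was the lowest. The difference was -0.27 (95% interval -0.71 to 0.17, limma adjusted p = 0.617). The null array was lower in each same-numbered pair, by 0.10, 0.35 and 0.36. With the replicate number as a term the interval was -0.48 to -0.06, and the limma p was 0.0213 before and 0.158 after adjustment. At 1446827_at the values were 5.08, 4.54 and 4.79 in wild-type and 4.77, 4.86 and 4.98 in null liver. The null values lay inside the wild-type range here (log2 fold change 0.07, 95% interval -0.27 to 0.40, adjusted p = 0.902). These intervals do not reach the falls of 1435233_at and 1435234_at. Set against each other array by array, the difference of each of the 2 called probe sets was below that of each of the 2 others by 1.89 to 2.5 on the log2 scale, with no overlap between genotypes in any of these 4 comparisons. The exact two-sided permutation p was 0.10 in each, the smallest that 3 arrays against 3 can give, also after adjustment over 6 such comparisons. Called and uncalled probe sets were told apart by these same values, and the 4 comparisons share probe sets. They therefore describe the size of the gap and are no separate test of it. Which of the 4 probe sets lie inside the deleted part of the gene was not analysed here. Whether the 2 uncalled ones could report the deletion is therefore not known.

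Ncoa1, which encodes SRC-1, did not pass at either tested probe set. At 1418594_a_at wild-type levels were 6.80, 6.83 and 6.92, and null levels 6.78, 6.57 and 6.79. All null values lay below all wild-type values, by a narrow margin, which was so for 10.8% of all tested probe sets. The difference was -0.13 with a 95% interval from -0.36 to 0.09, so a fall of more than 1.28-fold lay outside the interval (limma adjusted p = 0.624). At 1434515_at the 3 wild-type arrays gave 6.54, 6.84 and 7.07, against 6.57, 6.51 and 6.78 in the null, with overlap (log2 fold change -0.20, interval -0.55 to 0.15). The remaining Ncoa1 probe set, 1443397_at, had means of 3.27 and 3.28, below the filter, and was not tested.

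Ncoa3, which encodes SRC-3, had a lower mean in null liver at 1448027_at only. Its values were 5.52, 5.65 and 5.95 in wild-type and 5.39, 5.36 and 5.55 in null liver, with the highest null array just inside the wild-type range. The difference was -0.27 (SE 0.13, 95% interval -0.57 to 0.03), with a limma p of 0.07 before and 0.413 after adjustment. With the replicate number as a term the unadjusted p was 0.0186 and the adjusted p 0.149. At 1422737_at the means were 4.79 ± 0.11 and 4.79 ± 0.14 (SD, n = 3 each), with an interval from -0.25 to 0.25. Across the 4 tested probe sets of both relatives, the largest fall inside an interval was 1.48-fold, at 1448027_at of Ncoa3, and the largest rise 1.19-fold, at 1422737_at.

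The fall of Ncoa2 at 1435233_at was also set against its relatives. On each array the level of 1435233_at minus that of the brightest probe set of the relative was taken. Against Ncoa1 this moved from 1.22 ± 0.35 in wild-type to -1.09 ± 0.13 in null liver, and against Ncoa3 from 2.36 ± 0.20 to 0.20 ± 0.11 (SD, n = 3 each). The shifts were -2.30 and -2.17, and in both the 3 null arrays lay below the 3 wild-type arrays. The exact two-sided permutation p was again 0.10 for each, the lowest possible. The fall of 1435233_at given above enters both comparisons and far exceeds the differences of the relatives. Both comparisons therefore describe the size of the gap and are no separate test of it. Without each array in turn the shifts ran from -2.44 to -2.11 against Ncoa1 and from -2.23 to -2.05 against Ncoa3. With all probe sets of each gene averaged they were -1.09 and -1.07, since the 2 Ncoa2 probe sets that did not pass then enter the mean.

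**Figure D2:**
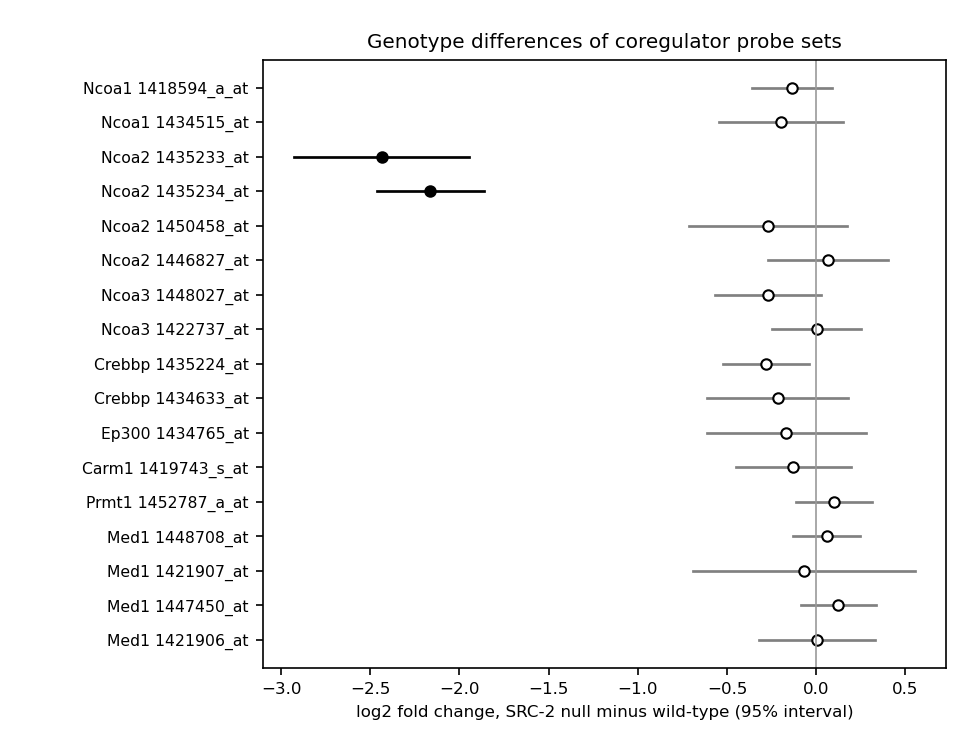
Log2 fold change (horizontal axis, SRC-2 null minus wild-type) of each tested coregulator probe set with its 95% interval from limma, filled where the adjusted p was under 0.05. The 2 called Ncoa2 probe sets lie at -2.44 and -2.16, and the point estimates of the 13 probe sets of the other 7 genes lie between -0.28 and 0.12.

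Among the acetyltransferases, Crebbp at 1435224_at had the smallest p of the uncalled members. Its values were 7.54, 7.57 and 7.80 in wild-type and 7.27, 7.34 and 7.45 in null liver. The groups did not overlap, and the null array was lower by 0.27, 0.22 and 0.35 in replicates 1, 2 and 3. The means were 7.63 ± 0.14 and 7.35 ± 0.09 (SD, n = 3 each), a log2 fold change of -0.28 (SE 0.10, 95% interval -0.52 to -0.04). The unadjusted limma p was 0.0278, the only one under 0.05 among the 13 tested probe sets outside Ncoa2, and 14% of all tested probe sets had such a p. It did not pass over all probe sets (adjusted p = 0.282, 0.109 with the replicate number as a term, and 0.253 with replicates 1 and 2 alone). A macrophage marker list was also lower in null liver, as given below, and its part in this value was not tested.

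The other probe sets of Crebbp also had lower null means, without passing or without a test. At 1434633_at the values were 6.68, 6.77 and 7.19 in wild-type and 6.59, 6.48 and 6.93 in null liver. The groups overlapped, and replicate 3 was the highest array in each (log2 fold change -0.22, interval -0.61 to 0.18, limma adjusted p = 0.66). The dim probe sets 1436983_at and 1459804_at, with null means of 3.58 and 3.34, were below the filter. Their null minus wild-type differences were -0.32 and -0.01, with overlap in both. Ep300 encodes p300, the close relative of CBP, and had 1 probe set, 1434765_at. It read 6.99, 7.10 and 7.57 in wild-type and 6.88, 6.91 and 7.38 in null liver, with overlap and a difference of -0.17 (SE 0.19, 95% interval -0.61 to 0.28, adjusted p = 0.776).

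The arginine methyltransferase genes did not pass and differed in sign. Carm1, at 1419743_s_at, read 7.51, 7.51 and 7.84 in wild-type and 7.38, 7.38 and 7.72 in null liver. Its 3 same-numbered differences were nearly equal, at -0.14, -0.13 and -0.12, while the arrays within a genotype spread by more than that. The fitted log2 fold change was -0.13 (95% interval -0.45 to 0.20, limma adjusted p = 0.762, and 0.37 with the replicate number as a term). A probe set with this name ending can detect several related transcripts. Prmt1, the main arginine methyltransferase of most cells, read 6.80, 6.87 and 6.98 in wild-type and 6.89, 7.01 and 7.05 in null liver at 1452787_a_at. The null means were higher by 0.10 with overlap (interval -0.11 to 0.31, adjusted p = 0.712), so a rise above 1.24-fold lay outside the interval.

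Med1, the Mediator subunit that binds nuclear receptors, was the most precisely measured member at one probe set and the least precisely at another. At 1448708_at wild-type levels were 6.94, 6.93 and 7.01, and null levels 6.99, 7.05 and 7.03. The spread within genotypes was 0.04, lower than at all but 2.28% of tested probe sets. The difference of 0.06 had a 95% interval of -0.13 to 0.24, which leaves room for a fall of at most 1.09-fold and a rise of at most 1.18-fold (limma adjusted p = 0.826). At 1421907_at the 3 wild-type arrays gave 6.11, 5.02 and 5.59, against 5.20, 5.64 and 5.67 in the null. That spread of 0.43 was at the 97.6th percentile of all tested probe sets, and the interval of -0.69 to 0.55 was wide (difference -0.07). At 1447450_at all null arrays lay above all wild-type arrays (5.27, 5.16 and 5.18 against 4.97, 5.12 and 5.15), which was so for 9.5% of tested probe sets. The difference there was 0.12 and did not pass (adjusted p = 0.63).

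Of the other Med1 probe sets, 1421906_at had a difference of 0.01 (interval -0.32 to 0.33). The dim probe sets 1450402_at, 1453972_x_at and 1439408_a_at, with wild-type means of 3.90, 2.87 and 2.34, were not tested. Their differences were -0.10, 0.13 and -0.03, and the genotypes overlapped in each. The annotation pairs 1421907_at, 1421906_at and 1450402_at with 1 source sequence, so these 3 are not separate measurements of Med1.

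Outside Ncoa2, then, 8 of the 13 tested probe sets had a null mean below and 5 above the wild-type mean. The median difference was -0.13, beside 0.00 over all tested probe sets. The genotypes did not overlap at 3 of the 13, compared with 20.3% of all tested probe sets. No call was made by limma, and an unadjusted p under 0.05 was found for 1, or for 3 with the replicate number as a term, namely 1448027_at of Ncoa3 and both tested Crebbp probe sets. With that term 21.2% of all tested probe sets had such a p. The null array was the lower one in all 3 same-numbered pairs at 6 of the 13 and the higher one in all 3 at 3, beside 22.0% and 21.9% of all tested probe sets. The labels do not pair the arrays, and several of the 13 belong to the same gene, so no trend is read from these counts. In simulated data with the same design and spread, 0% of changes of 1.3-fold were recovered, 44% of 1.5-fold, 86% of 2-fold and 100% of 4-fold. The simulated arrays varied independently, without a shared shift of replicate 3, and the fit had genotype as its only term. Differences of the size seen outside Ncoa2, below 1.3-fold, were not simulated, and that fit could easily miss them.

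Several coregulator probe sets differed between replicate 3 and the other replicates by more than between the genotypes. At Ep300 replicate 3 was above the mean of the other replicates by 0.52 in wild-type and 0.48 in null liver, against a genotype difference of -0.17. At Carm1 the corresponding values were 0.33 and 0.34, and at 1434633_at of Crebbp 0.47 and 0.39. At Prmt1 they were 0.14 and 0.10, beside a genotype difference of 0.10. Replicate 3 was the highest array of both genotypes at 9 of the 17 tested probe sets, compared with 29.6% of all tested probe sets. At 1435234_at and 1450458_at of Ncoa2 it was the lowest of both, as at 18.6% of all. The labels give no batch, and what sets replicate 3 apart was not tested.

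**Figure D3:**
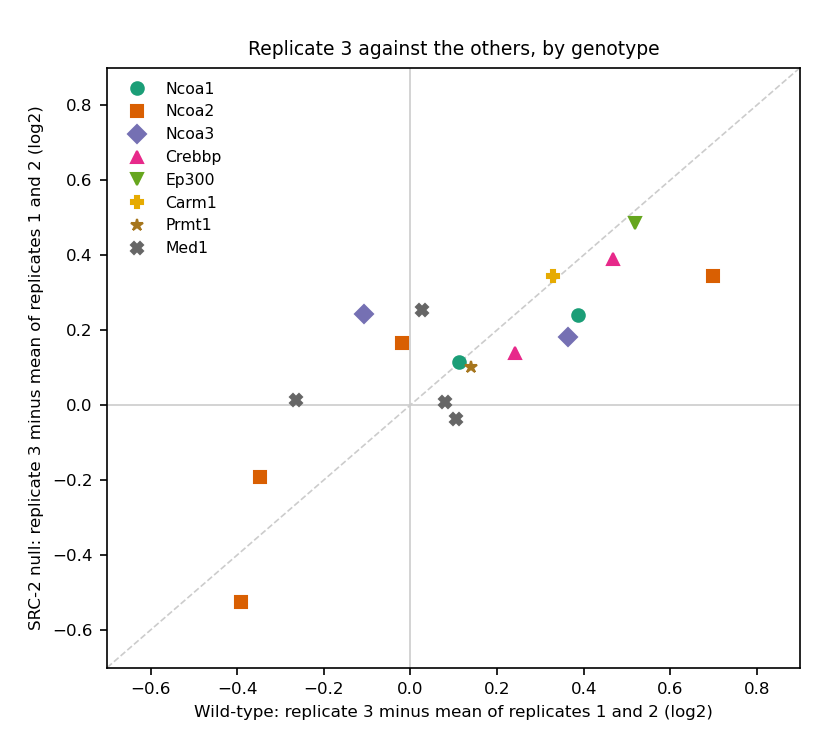
For each tested coregulator probe set, replicate 3 minus the mean of replicates 1 and 2 (log2) in wild-type (horizontal axis) and in SRC-2 null liver (vertical axis); the dashed line marks equal shifts. Ep300 at 0.52 and 0.48 and Carm1 at 0.33 and 0.34 lie on or near the line, and 1435234_at and 1450458_at of Ncoa2 lie below 0 on both axes.

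No single probe set of the wider coregulator machinery was called with genotype as the only term, and after averaging the probe sets of each gene Smarca2 was called higher (difference 0.48, limma adjusted p = 0.0425). Of 108 listed genes 103 had a tested probe set, and in limma 0 of their 213 probe sets were called in either direction, beside 2.41% of all tested probe sets. An unadjusted p under 0.05 was reached by 19 of them (8.92%, beside 14% of all), and the median log2 fold change was -0.01. With the replicate number as a term 2 were called, both higher and both of Smarca2, an ATPase of the SWI/SNF remodelling complexes, beside 1.38% higher among all probe sets. At 1430526_a_at Smarca2 read 7.37, 7.60 and 7.84 in wild-type and 7.92, 8.08 and 8.22 in null liver, without overlap. The difference was 0.47 (adjusted p = 0.179, and 0.0323 with the term). At 1452333_at it read 6.86, 6.78 and 6.12 in wild-type and 7.29, 7.42 and 6.52 in null liver, with replicate 3 lowest in both (difference 0.49, adjusted p = 0.51, and 0.0349 with the term). With replicate 3 against the others as the term, 3 were called higher, both Smarca2 probe sets and 1457332_at of Prmt3. The 2 called lower were 1434384_at of Nrip1 and 1456395_at of Ppargc1a. Among all probe sets 2.16% were called higher and 3.6% lower with that term. At 1437751_at, the brightest of 5 tested Ppargc1a probe sets, the difference was 0.01 with overlap (limma adjusted p = 0.968, genotype only).

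By group, and counting each gene by its brightest tested probe set, 3.04% of 11895 genes were called across the array (2.25% lower and 0.79% higher), with a median log2 fold change of 0.00. Of 21 other nuclear receptor coactivators 0 were called in limma, 3 had an unadjusted p under 0.05, and the median was 0.01. The smallest p belonged to Pnrc1, a small receptor-binding coactivator, at -0.30 (95% interval -0.53 to -0.07, adjusted p = 0.226), then Trim24 at -0.29, Rbm14 at -0.32 and Pprc1 at -0.32. A second Trim24 probe set was at -0.21, and the other Rbm14 probe sets were at -0.16, -0.03 and 0.09. Of 16 other histone acetyltransferases and methyltransferases 0 were called, 0 had an unadjusted p under 0.05, and the median was -0.07. The leading values were -0.33 for the acetyltransferase Kat6a, -0.18 for the methyltransferase Ehmt1, 0.36 for Setd7 and 0.19 for Kat7. Second probe sets of Kat6a and Setd7 were at -0.02 and 0.04, with overlap. The methyltransferase gene Prmt3, named after its values were seen, differed between its probe sets. At the dimmer one, 1457332_at, it read 4.13, 4.13 and 4.30 in wild-type and 4.64, 4.73 and 4.57 in null liver, without overlap. The wild-type mean of 4.18 lay below the filter value, so this probe set was tested only because of its null mean of 4.64. The difference there was 0.46, with the smallest p of all 213 probe sets (limma adjusted p = 0.0534, and 0.0288 with replicate 3 as a term). At its brightest probe set, 1426749_at, the difference was -0.13 with overlap (adjusted p = 0.632).

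Of 30 other Mediator subunits and kinase module genes 0 were called in limma, 3 had an unadjusted p under 0.05 and the median was -0.03. Med9, at 1449448_at, read 5.73, 5.48 and 5.72 in wild-type and 5.97, 5.94 and 6.19 in null liver, without overlap (difference 0.39, adjusted p = 0.168). Med20, the kinase gene Cdk8 and Med17 had differences of -0.27, -0.21 and -0.23. Second tested probe sets of Med9 and Med20 were at 0.06 and 0.04, with overlap in both. Of 14 SWI/SNF subunits 0 were called, 2 had an unadjusted p under 0.05 (Smarca2 and Smarcb1, at 0.47 and 0.29), and the median was 0.06. The differences of Smarca4, the other ATPase, and Arid1a were 0.21 and 0.12. Second tested probe sets of Smarcb1, Smarca4 and Arid1a were at -0.01, 0.02 and -0.0006, with overlap, and that of Smarca2 is given above. Of 22 corepressors and histone deacetylases 0 were called, 1 had an unadjusted p under 0.05, and the median was 0.02. That gene was Nrip1, a ligand-dependent corepressor, at -0.35 (95% interval -0.57 to -0.12, adjusted p = 0.155). With the replicate number as a term the adjusted p of this probe set, 1434384_at, was 0.0728, and with replicate 3 as the term 0.0436, a call. Nrip1 had 6 tested probe sets, and the others overlapped and were not called with either term. Their differences were -0.06, -0.08, 0.18, -0.38 and -0.15. Rbbp7, Hdac5 and Gps2 had differences of 0.25, -0.17 and 0.19. A second Rbbp7 probe set was at 0.20, without overlap. Hdac3, the deacetylase that NCoR1 works with, was named after its value was seen, at 0.18 (interval -0.20 to 0.57, adjusted p = 0.709).

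**Figure D4:**
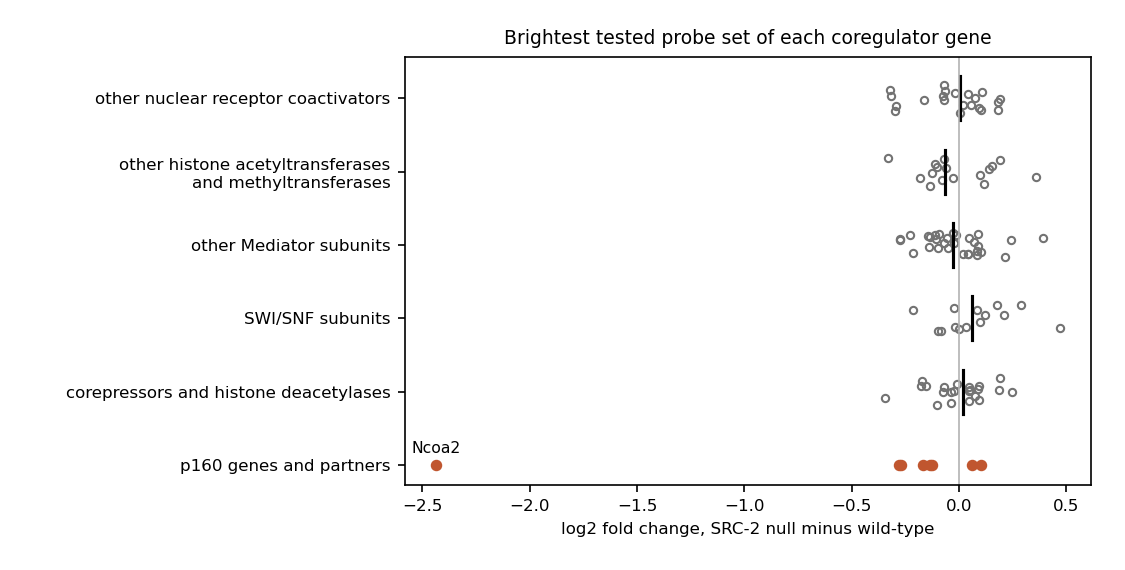
Log2 fold change (horizontal axis, SRC-2 null minus wild-type) of the brightest tested probe set of each gene, in 5 coregulator groups (grey circles, with a black bar at the group median) and in the p160 genes and partners (orange). Ncoa2 lies at -2.44, and the 103 genes of the 5 groups lie between -0.35 and 0.47.

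The genes whose pattern over the 6 arrays was most like 1435233_at of Ncoa2 were Sult2a2, Cnmd, Jchain, Serpina7 and Cd74. Likeness was the root mean square difference over the 6 arrays after the wild-type mean of each probe set was subtracted. It was 0.26 for Sult2a2, a sulfotransferase, 0.27 for Cnmd, 0.28 for Jchain, which joins antibody chains, and 0.30 and 0.31 for Serpina7, the thyroxine-binding globulin gene, and Cd74, the class II invariant chain. Sult2a2 read 11.37, 11.37 and 11.36 in wild-type and 8.85, 8.91 and 9.02 in null liver. These are genes with a fall close in size to that of Ncoa2, and the order among them rests on differences far below the spread of Ncoa2 itself (SD 0.41 in wild-type).

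The tissue matched its label, with hepatocyte markers among the brightest probe sets. All 7 measured, Alb among them, passed the filter, 0 were called in limma (0 with an unadjusted p under 0.05), and their summed level was 16.5 on the log2 scale in both genotypes. Markers of some other cells differed, and fewer cells of a type and less RNA per cell cannot be told apart in whole liver. Of 14 macrophage markers 12 were lower in null liver and 0 higher, with a median log2 fold change of -0.99. Across the array, by the brightest tested probe set of each gene, 2.25% were called lower and 0.79% higher. Their summed level ran from 12.3 to 12.4 in wild-type and from 11.2 to 11.3 in null liver, and all 14 passed the filter. Of 5 tested B and plasma cell markers 3 were lower, with summed levels of 10.8 to 11.1 in wild-type and 7.89 to 8.15 in null liver and Ms4a1 below the filter. Of 6 T and NK cell markers 2 were lower, Ccl5 and Nkg7, with sums of 8.05 to 8.15 against 7.52 to 7.72, and Cd3g and Cd2 below the filter. Null means of Nkg7, Cd3d and Gzmb (4.04, 4.09 and 4.19) also lay below the filter value. None of 8 endothelial or 7 stellate and matrix markers were called in limma, and 1 of 3 biliary markers, Krt19, was lower. An unadjusted limma p under 0.05 was reached by 2 of the endothelial and 1 of the stellate and matrix markers, beside 14% of all tested probe sets. The part of these cells in the Ncoa2 values was not tested.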

How the data were processed

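Liver RNA from SRC-2 null and wild-type mice was measured on 3 short oligonucleotide arrays per genotype. The authors deposited log2 expression values made with RMA, per the submitters' processing notes; the sources used here name no RMA version, chip description or genome build, so these are not given here. RMA corrects background, equalizes the distributions of the arrays and combines the probes of a set, so folds near the low end are compressed. Array medians were 4.17 to 4.24, no 2 arrays were identical, and the number of arrays limits the precision.

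Gene symbols were those of the array platform's annotation, some of which may be out of date. Of 45101 probe sets 34958 had exactly 1 symbol, and 19634 of these reached the filter on the mean over 6 arrays (4.21, the overall median) and were tested together in limma 3.58.1 (lmFit and eBayes, two-sided, genotype as the only term, R 4.3.3). Single comparisons between probe sets used exact permutation over arrays. Those within Ncoa2 were added after its values were seen. Members, lists and tests were chosen with earlier results of these data known. All member probe sets are named, as are the 4 genes of smallest p in each wider list and the 5 genes most like Ncoa2, with exceptions marked. The labels do not say that replicates are separate animals, so p-values reflect only how these samples vary, part of which may be technical.

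Replicate numbers come from the labels. Deviations from the group means correlated between wild-type and null arrays of the same number at 0.25, 0.32 and 0.67 for replicates 1, 2 and 3, so a fit with the replicate number as a block was given beside results it changed. The correlations between replicate 1 of one genotype and replicate 2 of the other were as high, 0.31 and 0.34. For this comparison the fit was checked on simulated data of 19634 probe sets with 200 changed. Figures used matplotlib 3.10.9 in Python 3.11.15.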

Additional observations from a re-analysis of the deposited data

How the results depend on the processing

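The calls and non-calls of the 17 tested coregulator probe sets kept their side of the threshold in all 280 comparisons over 18 alternatives, with 15 uncalled differences of changed sign. The call count fell from 2 to 1 with a mean of at least 6 required, and with the brightest probe set or the averaged probe sets of a gene, because these settings leave 1 Ncoa2 value; the mean over the Ncoa2 probe sets fell by 1.20. The difference between Ncoa2 and Ncoa1 was then -1.09 and that between Ncoa2 and Ncoa3 -1.07.

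Over all probe sets the 473 calls became 814 with the replicate block (270 higher, 544 lower) and 1131 with replicate 3 as a block (424 and 707). Higher calls, 121 in the fit as reported, were 184 with the brightest probe set, 198 with the gene mean and 214 with a trend in the prior variance. Leaving out an array gave 225 to 353 calls, 50 to 105 higher and 175 to 279 lower. Leaving out replicate 1 or 2 of wild-type gave 244 or 225, and leaving out replicate 1 or 2 of null liver 255 or 250. In the wider lists, with 0 calls before, the replicate block called 2 higher (Smarca2) and the gene mean 1 (Smarca2). Replicate 3 as a block called 3 higher (Smarca2 at 2 probe sets, Prmt3 at 1) and 2 lower (Nrip1 and Ppargc1a at 1 each). Changes of 1.3-fold lie below what 3 arrays a group detect with genotype as the only term, as 0% of them were recovered in the simulated data.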
